A study of Mus musculus with 22 samples.

Results

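The step from 30 to 150 µg/d of glucagon was examined in wild-type mouse liver, by setting the 4 libraries from WT animals infused with glucagon at 150 µg/d (libraries 15 to 18) against the 4 libraries from WT animals infused with 30 µg/d (libraries 7 to 10). These were 8 of the 22 libraries of the series, chosen by dose and genotype in their labels, and all 24475 genes of the deposited table were considered. The other libraries were 3 from uninfused WT liver, and 4, 4 and 3 from Gcg KO liver, which lacks the gene for glucagon, infused at 150 µg/d, at 30 µg/d and not infused. The libraries carry their running numbers. The labels give no strain, age, sex or length of infusion, and do not say whether each library is a mouse of its own. The p-values below therefore speak only of how these libraries vary. Both dose groups received glucagon on top of the animal's own hormone, since WT animals keep the Gcg gene.

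Glucagon is the pancreatic hormone of fasting. It binds its receptor on hepatocytes, which couples to adenylate cyclase, and the resulting cAMP activates protein kinase A and the transcription factor CREB. In liver it is known for raising glucose output and for raising amino acid uptake and breakdown, and the series asked how it bears on zonation, in which hepatocytes at the portal vein and at the central vein take on different metabolic tasks.

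Values are RPKM, reads scaled by transcript length and by library size as the authors computed them, and log2 differences are of RPKM + 1, given as 150 minus 30 µg/d with their SE. The spacing of low values gave an estimated 11.3 to 16.9 M reads for the libraries at 150 µg/d and 12.1 to 13.8 M for those at 30 µg/d, so that 1 read on a transcript of 1 kb was worth 0.059 to 0.088 RPKM. Spearman's rho across the 11590 genes tested was 0.971 to 0.984 between libraries at 150 µg/d, 0.969 to 0.981 between those at 30 µg/d and 0.967 to 0.98 between the groups. The sum of 9 hepatocyte markers, 46100 to 49600 RPKM at 150 µg/d and 45800 to 51000 RPKM at 30 µg/d, was high in every library. Gcg itself was listed at 0 in all 8, as liver does not express it, so the labels could not be checked against it.

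Library 17, at 150 µg/d, stood apart. The serum amyloid gene Saa1, an acute phase gene of the inflamed liver, had 639, 584, 7145 and 1021 RPKM in libraries 15 to 18, against 547, 87.3, 334 and 4547 RPKM in libraries 7 to 10. The neutrophil markers S100a8 and S100a9 reached 20.9 and 28.3 RPKM in library 17, where the other 3 libraries at 150 µg/d had 1.45 to 2.69 and 1.91 to 4.04 RPKM, and the sum of 8 neutrophil markers ranged from 4.28 to 58.1 RPKM at 150 µg/d and from 2.25 to 12.3 RPKM at 30 µg/d. Library 10 was the highest for these genes among those at 30 µg/d. Results of several gene lists are therefore given with and without these libraries, a choice made after these values were seen. Most single genes are given with all libraries only.

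At the higher dose 1 gene rose by limma's test with Benjamini-Hochberg adjustment over all genes tested, and none fell. The gene was Mmd2, a membrane protein of the progestin and adipoQ receptor family. Called genes were thus 1 of 11590, or 0.00863%, and 16 genes had an adjusted p under 0.1, of which 7 were higher and 9 lower. At an unadjusted p under 0.05 there were 941 genes (8.12%), 422 higher and 519 lower, and the values of the 2 groups did not overlap for 439 genes (3.79%), 183 higher (1.58%) and 256 lower (2.21%). The count of called genes was 0 to 4 with any 1 of the 8 libraries left out, and 8 without Gcg KO library 19, which enters the shared estimate of the spread. The median log2 difference of all genes tested was -0.01. Data were also simulated from these means and spreads, with changes in RPKM + 1 and normal noise that was independent between genes. There the same fit recovered 66.1% of genes changed 1.5-fold, 90.4% of those changed 2-fold and 100% of those changed 4-fold. No library was made to stand apart, so these shares do not measure what was missed here. Cyp17a1, with a ratio of means of 8.96, was not called (limma, adjusted p = 0.0914).

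Mmd2 (chromosome 5, 142563480 to 142608936, GRCm38) had 15.9, 12.3, 15.6 and 16.2 RPKM at 150 µg/d, against 4.52, 1.92, 3.79 and 2.84 RPKM at 30 µg/d. Every library at the higher dose lay above every library at the lower one. The means were 15.02 ± 1.82 RPKM and 3.27 ± 1.13 RPKM (SD, n = 4 each), a ratio of 4.6, and the log2 difference was 1.94 ± 0.293 (limma, adjusted p = 0.0265). Uninfused WT livers had 2.86, 3.98 and 2.09 RPKM, within the range of the livers at 30 µg/d. In Gcg KO liver Mmd2 also rose at 150 µg/d, with 1.33, 3.16, 2.02 and 8.47 RPKM against 0.0827, 0, 0.168 and 0.249 RPKM at 30 µg/d, a log2 difference of 1.86 (limma, adjusted p = 0.00772), and the interaction test of the 2 steps gave an unadjusted p of 0.852 (limma). The call in WT liver was lost when library 15, 16, 17, 18, 8 or 10 was left out (adjusted p from 0.0641 to 0.171) and with pseudocounts of 0.1 and 0.5, while the log2 difference stayed between 1.77 and 2.08 with any 1 of the 8 libraries left out.

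**Figure D1:**
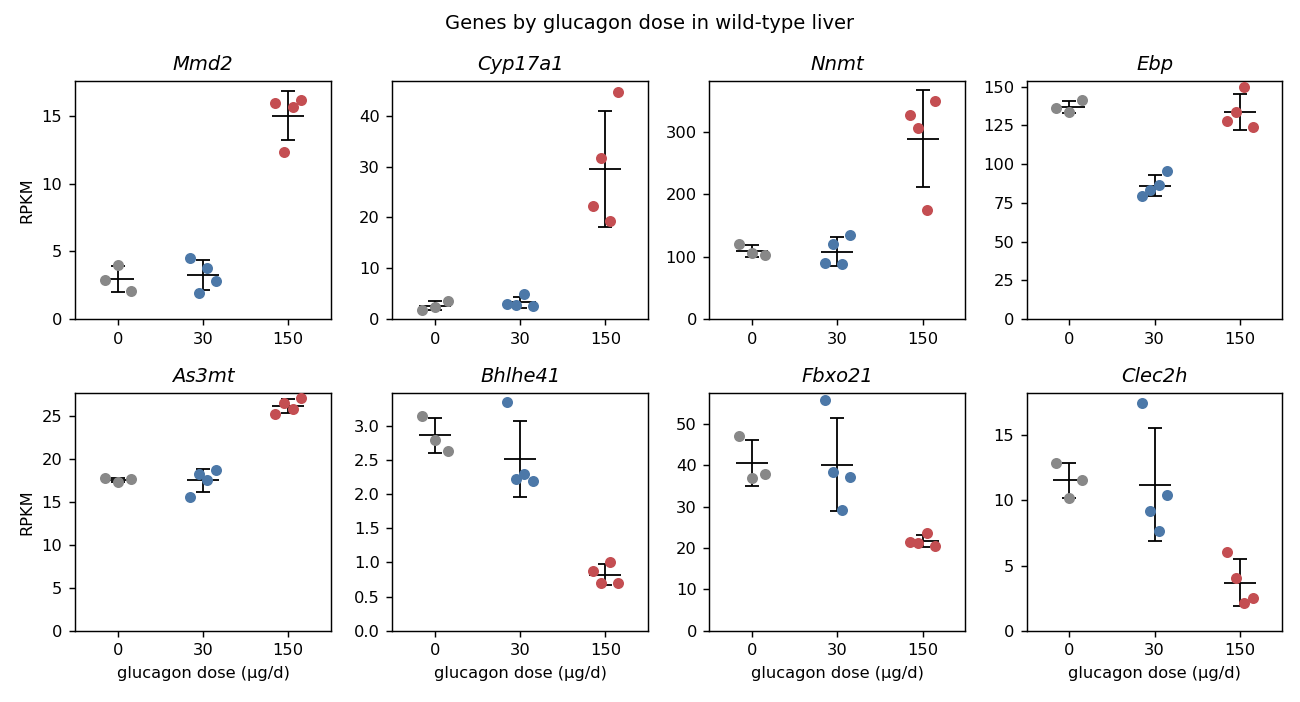
RPKM of 8 genes in each WT library by glucagon dose (0, 30 and 150 µg/d; linear axes from 0), with points for libraries and bars for mean ± SD (n = 3, 4 and 4). Mmd2, Cyp17a1, Nnmt and As3mt were at similar levels at 0 and 30 µg/d and lay higher at 150 µg/d, Ebp was lowest at 30 µg/d, and Bhlhe41, Fbxo21 and Clec2h lay lowest at 150 µg/d.

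Among the 16 genes with an adjusted p under 0.1, Ebp came next after Mmd2. It encodes a sterol isomerase of cholesterol synthesis, and it was named after its values were seen, as were Dmtf1, F3, Mrps30, As3mt, Grn and Marveld3. Ebp had 128, 134, 150 and 124 RPKM at 150 µg/d, against 79.2, 83.4, 86.4 and 95.3 RPKM at 30 µg/d, with no overlap (log2 difference 0.63, limma, adjusted p = 0.0619). Uninfused livers had 136, 133 and 141 RPKM, so the livers at 30 µg/d were the ones that lay apart and those at 150 µg/d were at the uninfused level. In Gcg KO liver Ebp rose at the higher dose (log2 difference 0.67, limma, adjusted p = 0.00772). Its values there were 117 to 183 RPKM at 150 µg/d, 83.7 to 99.5 RPKM at 30 µg/d and 71.2 to 82.9 RPKM without infusion. The livers at 30 µg/d were thus not the lowest group in Gcg KO liver.

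Bhlhe41, a transcriptional repressor linked to the circadian clock, had 0.872, 0.7, 1.01 and 0.703 RPKM at 150 µg/d, against 3.35, 2.21, 2.29 and 2.19 RPKM at 30 µg/d (log2 difference -0.94, limma, adjusted p = 0.0889). Uninfused livers had 3.14, 2.79 and 2.63 RPKM, above every library at 150 µg/d. In Gcg KO liver the gene was low at both doses, at 0.613 to 1.43 RPKM at 150 µg/d and 0.229 to 1.04 RPKM at 30 µg/d (log2 difference 0.32, limma, adjusted p = 0.483). The dose step of Bhlhe41 had the smallest p of all genes in the test of a difference between genotypes (unadjusted p = 7.31e-05, limma, adjusted p = 0.635) and missed the threshold. Few reads stand behind values this low.

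Promoter windows of 250 bases before to 50 bases after the start, from RefSeq on GRCm38.p6, were available for 14 of 24 genes, namely the 23 chosen by rule and Ebp, in 18 windows. Each was searched on both strands for the cAMP response element TGACGTCA, for its shorter core TGACG and for the E-box CACGTG, the element that clock factors of the basic helix-loop-helix class bind. TGACGTCA contains TGACG, so a full element also counts as a core. Of the windows of tested genes 2.92% held the full element, 30.6% the core and 10.1% the E-box, and 10 of the 14 genes held none of the 3 in these windows. The windows of the called gene and of the 2 genes just described are shown, all on the minus strand, with motif letters in capitals. Mmd2 lies at chr5:142608703-142609002 and has no such letters, Ebp at chrX:8193463-8193762 has a core 48 bases before the start, and Bhlhe41 at chr6:145865371-145865670 has an E-box 153 bases before the start.
Mmd2: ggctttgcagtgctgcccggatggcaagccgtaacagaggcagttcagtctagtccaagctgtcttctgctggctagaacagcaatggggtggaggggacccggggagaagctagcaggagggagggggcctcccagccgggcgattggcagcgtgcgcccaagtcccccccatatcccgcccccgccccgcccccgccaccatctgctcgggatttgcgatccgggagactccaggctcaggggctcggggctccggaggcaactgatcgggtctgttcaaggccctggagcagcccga
Ebp: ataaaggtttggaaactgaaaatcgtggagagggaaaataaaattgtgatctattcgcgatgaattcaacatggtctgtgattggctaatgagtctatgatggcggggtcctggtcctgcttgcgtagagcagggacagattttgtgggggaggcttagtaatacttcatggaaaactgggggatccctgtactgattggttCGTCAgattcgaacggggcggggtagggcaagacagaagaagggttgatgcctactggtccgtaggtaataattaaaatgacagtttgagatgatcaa
Bhlhe41: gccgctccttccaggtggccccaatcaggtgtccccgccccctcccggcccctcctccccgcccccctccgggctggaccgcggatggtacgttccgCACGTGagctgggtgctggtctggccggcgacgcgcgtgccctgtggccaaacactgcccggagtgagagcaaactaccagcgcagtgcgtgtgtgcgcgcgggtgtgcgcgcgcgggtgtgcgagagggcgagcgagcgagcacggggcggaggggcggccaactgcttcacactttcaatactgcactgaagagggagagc

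The remaining genes of smallest p with a log2 difference of at least 0.8, no overlap and at least 1 RPKM were 11 higher and 11 lower. These were chosen by their values in this comparison, so the values are a description. Cyp17a1, the hydroxylase and lyase at the branch to androgens in steroid synthesis, had 22.3, 31.6, 19.3 and 44.7 RPKM at 150 µg/d, against 2.92, 2.77, 4.95 and 2.53 RPKM at 30 µg/d. The lowest library at the higher dose was well above the highest at the lower dose, with a ratio of means of 8.96 and a log2 difference of 2.79 ± 0.539 (limma, adjusted p = 0.0914). Uninfused livers had 1.88, 2.37 and 3.66 RPKM. Cyp17a1 passed the threshold when only the 3 WT groups were fitted (adjusted p = 0.0014) and when only the 2 dose groups were (adjusted p = 0.0107), fits in which the Gcg KO libraries do not enter the estimate of spread. Its difference in Gcg KO liver was 2.10 (limma, adjusted p = 0.0842).

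Nnmt, the enzyme that methylates nicotinamide, had 327, 306, 175 and 350 RPKM at 150 µg/d, against 89.5, 120, 88.5 and 136 RPKM at 30 µg/d (log2 difference 1.38 ± 0.508, limma, adjusted p = 0.513). The groups did not overlap, and library 17 was the lowest at the higher dose. Uninfused livers had 120, 106 and 103 RPKM, close to those at 30 µg/d. Pter, a phosphotriesterase-related enzyme, had 34.8, 33.4, 32.3 and 47.3 RPKM at 150 µg/d, against 13.3, 12.6, 14.5 and 16.04 RPKM at 30 µg/d (log2 difference 1.32, limma, adjusted p = 0.385 with all groups, and 0.0014 with the 3 WT groups). With 30.7, 29.4 and 33.0 RPKM in uninfused livers, Pter was low at 30 µg/d and near the uninfused level at 150 µg/d, as Ebp was.

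Isyna1, which makes inositol phosphate from glucose phosphate, had 8.89, 6.92, 50.7 and 23.8 RPKM at 150 µg/d, against 3.64, 1.44, 4.07 and 4.52 RPKM at 30 µg/d (log2 difference 2.08, limma, adjusted p = 0.287). Its highest value was in library 17. Btg3, of an antiproliferative family, had a difference of 0.85 (limma, adjusted p = 0.124), Hip1r, an adaptor of endocytosis, one of 0.90, and Sdc1, a heparan sulfate proteoglycan of the hepatocyte surface, one of 0.92. Hip1r had 20.6, 14.4, 9.43 and 20.9 RPKM at 150 µg/d, against 7.78, 6.66, 8.98 and 8.27 RPKM at 30 µg/d, so that library 17 came close to the lower group. Acacb, the carboxylase whose product malonyl-CoA restrains fatty acid entry into mitochondria, had 10.6, 14.8, 13.1 and 13.04 RPKM at 150 µg/d, against 6.59, 4.93, 8.94 and 7.67 RPKM at 30 µg/d (log2 difference 0.80, limma, adjusted p = 0.413). The short RNA genes Scarna17, Mir6516 and Mir1948 completed the higher genes, with differences of 0.80, 0.81 and 1.24, and few reads stand behind the RPKM of genes that short.

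On the lower side, Fbxo21, a substrate receptor of a ubiquitin ligase, had 21.4, 21.1, 23.7 and 20.6 RPKM at 150 µg/d, against 55.8, 38.3, 29.1 and 37.2 RPKM at 30 µg/d (log2 difference -0.82 ± 0.164, limma, adjusted p = 0.0914). Uninfused livers had 47.0, 36.8 and 37.9 RPKM. Clec2h, a C-type lectin-like gene, had 6.06, 4.04, 2.11 and 2.52 RPKM at 150 µg/d, against 17.5, 9.21, 7.68 and 10.4 RPKM at 30 µg/d (log2 difference -1.39, limma, adjusted p = 0.0914). In both genes all 4 libraries at the higher dose lay below the 3 uninfused ones as well. Gbp10, an interferon-induced GTPase with close paralogs that can share reads, differed by -0.89 (limma, adjusted p = 0.0914), and Tbcel, a relative of a tubulin folding cofactor, by -0.84 (limma, adjusted p = 0.131).

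Cyr61, a matrix-associated growth regulator, had 3.56, 2.03, 1.38 and 3.38 RPKM at 150 µg/d, against 18.97, 4.14, 4.41 and 23.8 RPKM at 30 µg/d (log2 difference -1.64, limma, adjusted p = 0.382). Libraries 7 and 10 carried most of that distance. Ccl9, a chemokine of myeloid cells, had 10.3, 10.9, 29.8 and 9.73 RPKM at 150 µg/d, against 30.4, 40.4, 30.6 and 31.1 RPKM at 30 µg/d (log2 difference -1.22, limma, adjusted p = 0.517), with library 17 just under the lower-dose range. The phosphate transporter Slc20a1 differed by -0.85, the small nucleolar RNA Snord22 by -0.92 and Cyp4a12b, a fatty acid hydroxylase of male liver with a near-identical copy, by -0.82. Their adjusted p ran from 0.291 to 0.709 (limma). Snord22 is a short gene with few reads, at 0 to 0.933 RPKM at 150 µg/d against 1.29 to 2.27 RPKM at 30 µg/d. Its difference ran from -2.0 to -0.31 under the alternatives in processing.

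Smaller log2 differences were found in others of the 16. As3mt, a methyltransferase that acts on arsenic, had 25.1, 26.5, 25.8 and 27.1 RPKM at 150 µg/d, against 15.6, 18.2, 17.5 and 18.7 RPKM at 30 µg/d, and uninfused livers had 17.7, 17.3 and 17.6 RPKM (log2 difference 0.56, limma, adjusted p = 0.0914). Srsf5, a splicing factor, had 148, 122, 127 and 122 RPKM at 150 µg/d, against 197, 179, 159 and 169 RPKM at 30 µg/d (log2 difference -0.44, limma, adjusted p = 0.0634). Neither gene overlapped between the doses. Grn, which encodes progranulin, differed by 0.56 and the tight junction gene Marveld3 by 0.73. The transcription factor Dmtf1 differed by -0.37, tissue factor F3 by -0.53 and the mitochondrial ribosome gene Mrps30 by -0.27. The adjusted p ran from 0.0634 to 0.0914 in these 5 genes (limma). Marveld3 was low, at 0.901 to 1.5 RPKM at 150 µg/d against 0.101 to 0.515 RPKM at 30 µg/d. Few reads stand behind it, and its ratio of means was 3.69, which the added 1 RPKM shrinks on the log2 scale.

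Of the 23 genes chosen by rule, counting Mmd2, the median of the uninfused livers lay closer to that at 30 µg/d for 18 and closer to that at 150 µg/d for 5. All values at 150 µg/d were clear of the uninfused range for 17 genes and all values at 30 µg/d for 3, which were Scarna17, Pter and Ccl9. Over all genes tested the shares were 14.5% and 7.49%, and the 23 genes had been chosen for values that did not overlap between the doses.

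The same dose step was measured in Gcg KO liver, whose libraries are shared with no WT group but enter the same estimate of spread. There 63 genes were called (0.544%), 35 higher (0.302%) and 28 lower (0.242%), and values did not overlap between the doses for 6.29% of all genes. Over all genes tested, 60% had the same sign in both steps. All 12 higher genes of the WT list differed in the same direction in Gcg KO liver, with a median of 0.89 against 1.08 in WT, 2 of them, Mmd2 and Btg3, were called there and 3 did not overlap. Of the 11 lower genes 7 had the same sign, a share close to that over all genes, with a median of -0.27 against -0.92 in WT, and none was called. Read the other way, 33 of the 35 genes that rose in Gcg KO liver were also higher in WT liver at 150 µg/d. Their median was 0.38 in WT against 0.80 in Gcg KO. Of the 35, 21 were higher in WT at an unadjusted p under 0.05 (limma), beside 422 of all 11590 genes. Of the 28 that fell in Gcg KO liver 26 had the same sign in WT, with medians of -0.21 in WT and -0.60 in Gcg KO. In WT 11 of them were lower at an unadjusted p under 0.05 (limma), beside 519 of all 11590 genes. Both steps share 1 estimate of spread for each gene, so these counts by p are not independent of the calls in Gcg KO liver.

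Across all 11590 genes the 2 steps correlated at Pearson's r = 0.427 and Spearman's rho = 0.287, a description across genes, which are not independent replicates. No gene's dose step was called different between the genotypes by limma's interaction test (586 genes at an unadjusted p under 0.05, lowest adjusted p = 0.635). The genes of smallest p after Bhlhe41 were Atxn1, which binds the repressor Capicua, Ppfibp2, a liprin, and Srsf5. Atxn1 differed by 0.25 in WT liver and by -0.78 in Gcg KO liver, Ppfibp2 by -0.24 and 0.50, and Srsf5 by -0.44 and 0.06. Gcg KO library 13, at 30 µg/d, and uninfused Gcg KO library 4 stood apart from their groups, with a periportal minus pericentral index of 1.98 and 1.7 where the others of those groups had 0.63 to 1.14 and 0.36 to 0.75. Without them, a choice that rests on values seen in the data, 201 genes were called in Gcg KO liver and 5 in WT liver. Gcg KO library 19, at 150 µg/d, lay apart as well, with an index of 0.99 where the other 3 of its group had 1.77 to 1.93. Without library 19, a choice made after these values were seen, 282 genes were called in Gcg KO liver, 8 in WT liver and none for the interaction (limma, 803 at an unadjusted p under 0.05).

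**Figure D2:**
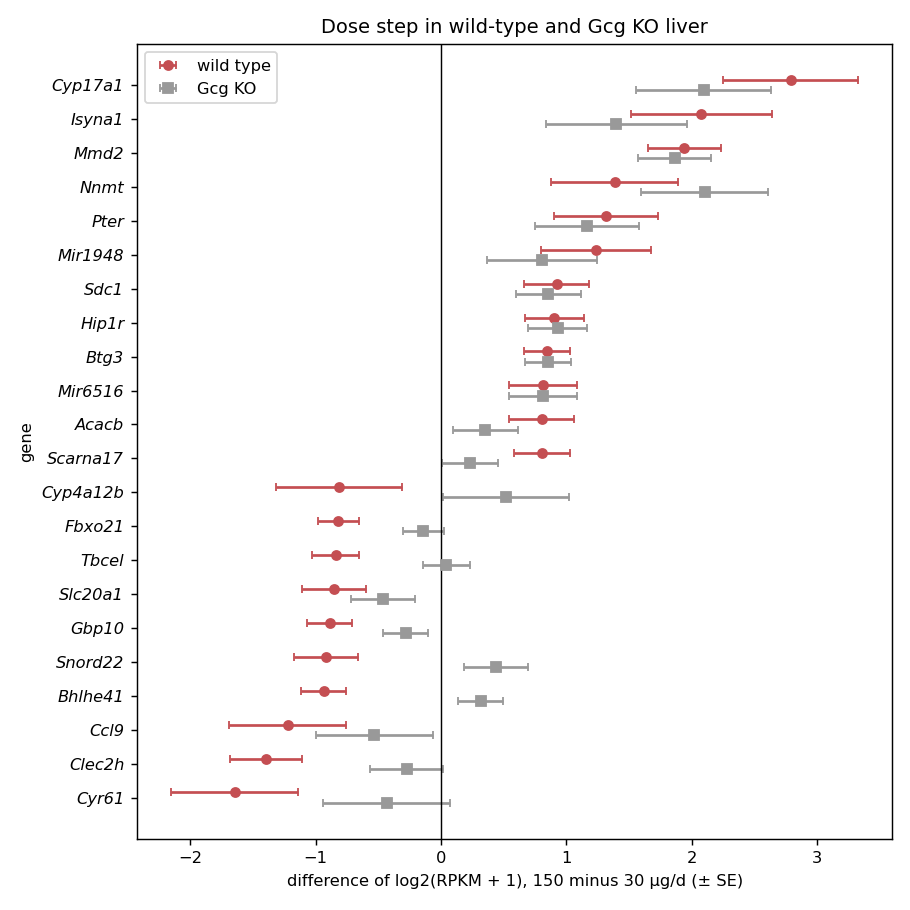
Difference of log2(RPKM + 1), 150 minus 30 µg/d, with its SE for 22 of the 23 genes chosen by rule in WT liver (circles, upper of each pair) and in Gcg KO liver (squares). All 12 genes above 0 in WT were above 0 in Gcg KO liver, and 6 of the 10 plotted below 0 in WT were below 0 there.

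Pathway genes were read from 32 lists and markers of other cells from 10. None of the 590 pathway genes tested was called by limma, and 61 (10.3%) had an unadjusted p under 0.05, 27 higher and 34 lower, beside 8.12% of all genes. Values did not overlap between the doses for 29 of them (4.92%), beside 3.79% of all genes. The list medians ran from -0.66 to 0.45.

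Starting with the hormone's own chain, none of 17 tested genes was called (limma, 1 at an unadjusted p under 0.05) and the median was -0.02. Gcgr, the glucagon receptor, had 68.5, 76.5, 87.6 and 79.1 RPKM at 150 µg/d, against 86.7, 83.8, 82.4 and 84.0 RPKM at 30 µg/d (log2 difference -0.12 ± 0.0965, limma, adjusted p = 0.79). The groups overlapped. Adcy9, an adenylate cyclase, had 4.97, 5.1, 4.02 and 4.15 RPKM at 150 µg/d, against 8.37, 6.46, 4.76 and 6.77 RPKM at 30 µg/d (log2 difference -0.43, limma, adjusted p = 0.414). Early targets of cAMP and CREB gave 6 differences above 0 and 12 below it among 18 genes, with a median of -0.11. That sign was not stable, with medians of 0.05 without library 17, 0.06 without library 7 and -0.28 without library 9. Without libraries 10 and 17 there were 10 differences above 0 and 8 below it. With all 8 libraries, values at 150 µg/d lay lower with no overlap for 2 of the 18 and higher for 0, beside 2.21% and 1.58% of all genes. Without libraries 10 and 17 this held for 2 and 1, beside 5.26% and 6.1%. The coactivator Ppargc1a had 4.7, 3.02, 1.55 and 2.84 RPKM at 150 µg/d, against 2.52, 2.16, 1.31 and 1.79 RPKM at 30 µg/d (log2 difference 0.41, limma, adjusted p = 0.722). Igfbp1, an insulin- and glucagon-regulated binding protein, spanned 8.22 to 139 RPKM at 150 µg/d and 7.92 to 122 RPKM at 30 µg/d, and its difference of 0.31 changed sign without library 18 or library 9.

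Amino acid catabolism, the set most tied to glucagon in liver, had 40 differences above 0 and 11 below it among 51 tested genes, with a median of 0.13, none called and 2 at an unadjusted p under 0.05. Sds, which deaminates serine, had 338, 223, 90.6 and 251 RPKM at 150 µg/d, against 154, 99.2, 70.0 and 120 RPKM at 30 µg/d (log2 difference 0.93 ± 0.537, limma, adjusted p = 0.697). Oat, which turns over ornithine, had 1080, 950, 350 and 824 RPKM at 150 µg/d, against 664, 633, 427 and 570 RPKM at 30 µg/d (log2 difference 0.38, limma, adjusted p = 0.825). In both genes libraries 15, 16 and 18 lay above every library at 30 µg/d and library 17 lay among or below them. The glutaminase Gls2 and the tyrosine aminotransferase Tat followed that order too, with differences of 0.40 and 0.49 and, in library 17, 110 and 379 RPKM. The 2 members of smallest p were Hibch of valine breakdown, which differed by -0.24, and Mat1a, the methionine adenosyltransferase, at 0.69 (limma, adjusted p = 0.349 and 0.469).

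Urea cycle genes, which dispose of the nitrogen, had the highest median of the 32 lists at 0.45, with 7 of 8 differences above 0 and 4 at an unadjusted p under 0.05. Nags, which makes the cofactor of the first step, had 26.4, 31.3, 25.0 and 27.8 RPKM at 150 µg/d, against 18.03, 19.3, 20.8 and 21.7 RPKM at 30 µg/d, with no overlap (log2 difference 0.45 ± 0.131, limma, adjusted p = 0.341). Asl, argininosuccinate lyase, had 401, 441, 218 and 392 RPKM at 150 µg/d, against 247, 279, 190 and 200 RPKM at 30 µg/d, with library 17 inside the range of the lower dose (log2 difference 0.63, limma, adjusted p = 0.443). Otc was the member below 0, at -0.36. Among amino acid transporters the mitochondrial aspartate-glutamate carrier Slc25a12 did not overlap between doses and differed by 0.41 (limma, adjusted p = 0.233).

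Gluconeogenesis had 12 of 14 differences above 0 and a median of 0.23. Pck1, its rate-setting carboxykinase, had 2225, 1557, 764 and 1928 RPKM at 150 µg/d, against 1546, 1241, 983 and 916 RPKM at 30 µg/d (log2 difference 0.39, limma, adjusted p = 0.783). G6pc, the phosphatase that releases glucose, had 236, 185, 36.9 and 359 RPKM at 150 µg/d, against 129, 94.1, 79.7 and 320 RPKM at 30 µg/d (log2 difference 0.23, limma, adjusted p = 0.96). Library 17 was the lowest of all 8 for both genes, and the sign for G6pc turned without library 18 or library 9. Pck2 did not overlap between doses, at 0.753 to 1.03 RPKM at 150 µg/d and 0.431 to 0.695 RPKM at 30 µg/d, but is close to the limit of expression here.

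**Figure D3:**
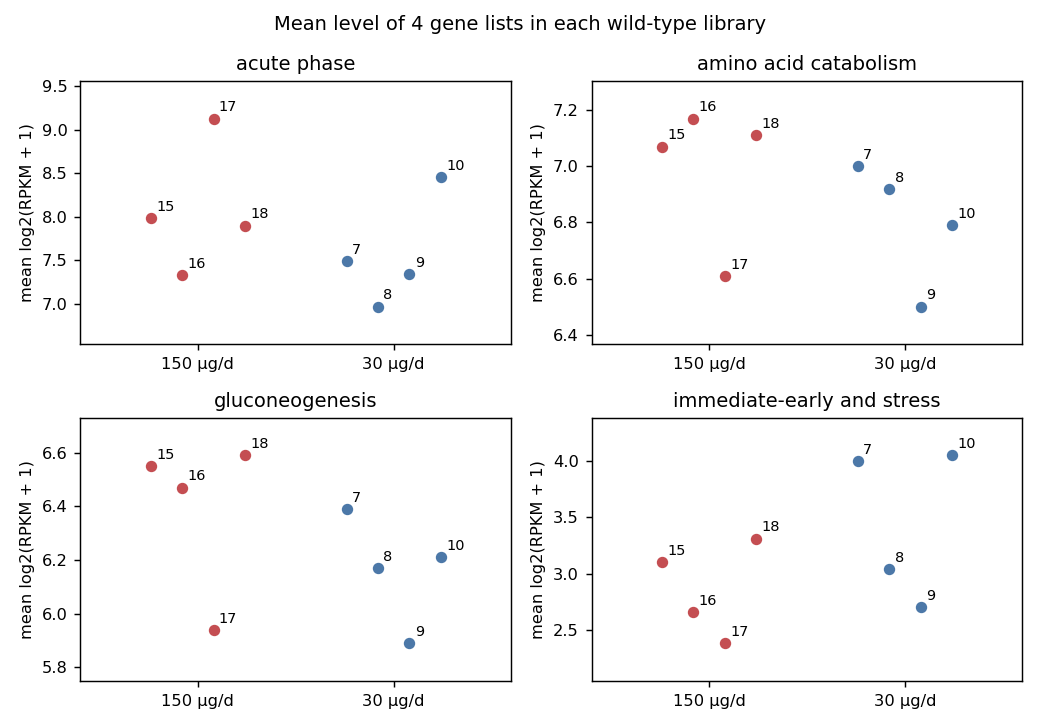
Mean log2(RPKM + 1) of the tested members of 4 gene lists in each WT library, 150 µg/d left of 30 µg/d, with library numbers (axes do not start at 0). Library 17 was highest for acute phase genes (9.13) and lowest of its group for amino acid catabolism (6.61) and gluconeogenesis (5.94), and libraries 7 and 10 were highest for immediate-early genes (4.0 and 4.05).

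Library 17 moved with these lists. Its mean log2(RPKM + 1) for amino acid catabolism was 6.61, where the others at 150 µg/d had 7.07 to 7.17 and libraries at 30 µg/d had 6.5 to 7.0. Without library 17 the medians were 0.20 for amino acid catabolism, 0.59 for the urea cycle and 0.31 for gluconeogenesis. Leaving out other libraries lowered them, to 0.00 without library 9 and 0.03 without library 16 for amino acid catabolism, to 0.13 without library 9 and 0.15 without library 18 for gluconeogenesis, and to no less than 0.37 for the urea cycle. Without libraries 10 and 17 values did not overlap, with 150 µg/d higher, for 17 of 51, 6 of 8 and 7 of 14 members, beside 6.1% of all genes in these 6 libraries, but with all 8 libraries for 1 member each, beside 1.58%. The part of inflammation in the levels of library 17 was not tested.

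Acute phase genes had a median of 0.39 with all libraries, with 20 differences above 0 and 7 below it. The median was 0.14 without library 17, 0.64 without library 10 and 0.38 without both. Values did not overlap, with 150 µg/d higher, for 0 of the 27 members with all 8 libraries, beside 1.58% of all genes. Without libraries 10 and 17 this held for 8 of the 27, beside 6.1% of all genes. Those libraries had been left out for their high levels of such genes, so the count of 8 is a description only. Their library means were 7.33 to 9.13 at 150 µg/d and 6.97 to 8.46 at 30 µg/d. Stat3, the transcription factor that drives the response to interleukin signals, had 37.1, 29.6, 41.8 and 39.4 RPKM at 150 µg/d, against 24.9, 23.1, 31.7 and 31.5 RPKM at 30 µg/d (log2 difference 0.40, limma, adjusted p = 0.382), and it rose in Gcg KO liver (log2 difference 0.76, limma, adjusted p = 0.00772). Itih4, a plasma protein of the acute phase, differed by 0.64 in WT liver (limma, adjusted p = 0.449) and rose by 0.98 in Gcg KO liver (limma, adjusted p = 0.0464). The whole list had a median of 0.88 in Gcg KO liver, with 3 of 27 members called higher (limma), beside 0.302% of all genes. Saa1 there had 8245, 169, 3784 and 5234 RPKM at 150 µg/d, against 756, 86.0, 40.8 and 336 RPKM at 30 µg/d. High levels at 150 µg/d were thus not limited to library 17.

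For zonation, 25 periportal genes had a median of 0.36 and 27 pericentral genes one of -0.18, with none called in either list (4 at an unadjusted p under 0.05 in each). The mean log2 level of the periportal genes minus that of the pericentral genes was 1.81, 1.72, 1.20 and 2.03 at 150 µg/d, against 1.37, 1.10, 1.23 and 1.27 at 30 µg/d. Libraries 15, 16 and 18 lay above the lower-dose group and library 17 lay within it. The means were 1.69 ± 0.35 and 1.24 ± 0.11 (SD, n = 4 each), and that of uninfused livers was 1.28 ± 0.13 (SD, n = 3). The difference of 0.45 became 0.61 without library 17 and 0.33 without library 18. The periportal median was 0.54 without library 17 and 0.23 without library 15. The index is given without a test, since the lists were chosen with earlier results in view.

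Cyp2e1, a pericentral cytochrome of ethanol and drug metabolism, had 3655, 3273, 3190 and 2596 RPKM at 150 µg/d, against 5551, 4991, 3933 and 3781 RPKM at 30 µg/d, with no overlap (log2 difference -0.51 ± 0.207, limma, adjusted p = 0.538). Uninfused livers had 3789, 4529 and 4232 RPKM. Glul, the glutamine synthetase of the cells around the central vein, had 380, 319, 433 and 357 RPKM at 150 µg/d, against 413, 446, 383 and 443 RPKM at 30 µg/d (log2 difference -0.18, limma, adjusted p = 0.872). The Wnt target Axin2 differed by -0.22 and Nkd1, another Wnt target, by -0.33 (limma, adjusted p = 0.801 and 0.427). Cyp2f2, a periportal cytochrome, had 586, 717, 611 and 752 RPKM at 150 µg/d, against 610, 766, 895 and 809 RPKM at 30 µg/d (log2 difference -0.20, limma, adjusted p = 0.78), so it did not share the sign of its list's median. In bulk liver, fewer cells of a type and less RNA per cell cannot be told apart.

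In lipid and sugar metabolism, fatty acid synthesis had 13 differences above 0 and 2 below it, with a median of 0.29, which was 0.48 without library 17 and 0.20 to 0.39 with 1 of the others left out. Acly, which supplies cytosolic acetyl-CoA, had 83.4, 152, 61.9 and 110 RPKM at 150 µg/d, against 39.4, 51.9, 50.3 and 64.1 RPKM at 30 µg/d (log2 difference 0.91, limma, adjusted p = 0.524), and was named after its values were seen. Cholesterol synthesis had a median of 0.20, which was 0.00 without library 17, 0.04 without library 9, 0.36 without library 10, 0.37 without library 15 and 0.19, with 19 of 20 differences above 0, without libraries 10 and 17. Pmvk, a kinase of the mevalonate pathway, differed by 0.63 (limma, adjusted p = 0.442). Fatty acid oxidation had 7 differences above 0 and 21 below it, with a median of -0.12, which was 0.00 without library 17 or library 7, -0.19 without library 16 and -0.08 without libraries 10 and 17. Fabp1, the fatty acid binding protein of liver, had 4059, 5243, 4330 and 5809 RPKM at 150 µg/d, against 7058, 6151, 7562 and 6065 RPKM at 30 µg/d, with no overlap (log2 difference -0.47, limma, adjusted p = 0.341). Genes of glycolysis and carbohydrate response had 10 differences above 0 and 6 below it. Their median was 0.17, or 0.07 without library 18 and 0.24 without library 7. Values at 150 µg/d lay higher with no overlap for 2 of 16 members and lower for 1, beside 1.58% and 2.21% of all genes. The 2 higher ones were Tpi1, triose phosphate isomerase, and Pfkfb1, a kinase and phosphatase that regulates glycolysis. They differed by 0.39 and 0.63 (limma, adjusted p = 0.194 and 0.291).

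Drug metabolism genes had 7 differences above 0 and 24 below it, with a median of -0.25, or -0.10 without library 18 and -0.13 without library 7. The named member above 0 was Nr1i2, the nuclear receptor that senses foreign compounds, which had 34.6, 34.5, 29.0 and 31.4 RPKM at 150 µg/d, against 23.0, 25.1, 27.8 and 19.4 RPKM at 30 µg/d (log2 difference 0.43, limma, adjusted p = 0.166). Its groups did not overlap. The carboxylesterase Ces2a differed by -0.68 (limma, adjusted p = 0.442).

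Immediate-early and stress genes lay on the other side. All 22 differences were below 0, with a median of -0.48, none was called and 1 had an unadjusted p under 0.05. Fos, named after its values were seen, had 7.01, 2.85, 0.872 and 13.7 RPKM at 150 µg/d, against 31.1, 4.13, 3.65 and 38.6 RPKM at 30 µg/d (log2 difference -1.29, limma, adjusted p = 0.754). Libraries 7 and 10 were the high ones, and libraries 8 and 9 lay among those at 150 µg/d. The library means of the list were 2.38 to 3.31 at 150 µg/d and 2.70 to 4.05 at 30 µg/d, the same 2 libraries being highest, and uninfused livers spanned 2.33 to 3.78. Without libraries 10 and 17 there were 5 differences above 0 and 17 below it, with a median of -0.23, and the median was -0.86 without library 9 and -0.33 without library 7.

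Male-biased liver genes, which follow the growth hormone pattern, had the lowest median of the 32 lists at -0.66, with 1 difference above 0 and 22 below it, none called and none at an unadjusted p under 0.05. All 8 libraries had the pattern of male animals, with the Y-linked Ddx3y at 10.2 to 16.1 RPKM at 150 µg/d and 12.5 to 16.3 RPKM at 30 µg/d and Xist at no more than 0.0235 RPKM. Many of the list are Mup genes, a family of near-identical copies whose reads the authors' counting may have split. The median was -0.62 without libraries 10 and 17, -0.41 without library 15 and -0.86 without library 7. Interferon-induced genes had 3 differences above 0 and 23 below it, with a median of -0.20, or -0.10 without library 7, and 5 at an unadjusted p under 0.05. Iigp1, an immunity-related GTPase, had 59.6, 47.8, 88.3 and 58.1 RPKM at 150 µg/d, against 142, 110, 79.3 and 104 RPKM at 30 µg/d (log2 difference -0.78, limma, adjusted p = 0.224), and Gbp6 differed by -0.43 (limma, adjusted p = 0.318). For Iigp1 the groups overlapped through libraries 17 and 9 alone. Values at 150 µg/d lay below those at 30 µg/d with no overlap for 2 of 26 list members, beside 2.21% of all genes, and for 6 of 26 without libraries 10 and 17, beside 5.26%.

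Cell cycle genes had 15 differences above 0 and 1 below it, none called and 2 at an unadjusted p under 0.05, with a median of 0.32 in WT liver, or 0.21 without library 18, and of -0.03 in Gcg KO liver. Values did not overlap for 4 of the 16, namely Ccnb2, Rrm2, Mki67 and Cdk1, named after their values were seen, beside 1.58% of all genes. The mitotic cyclin Ccnb2 had 0.877, 0.738, 0.547 and 1.42 RPKM at 150 µg/d, against 0.476, 0.267, 0.317 and 0.14 RPKM at 30 µg/d (log2 difference 0.53, limma, adjusted p = 0.537). Rrm2, a subunit of ribonucleotide reductase, had 2.26, 2.71, 2.25 and 3.3 RPKM at 150 µg/d, against 1.08, 2.15, 0.933 and 1.48 RPKM at 30 µg/d. Levels this low rest on few reads, and library 18 was the highest for each of the 4 genes.

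**Figure D4:**
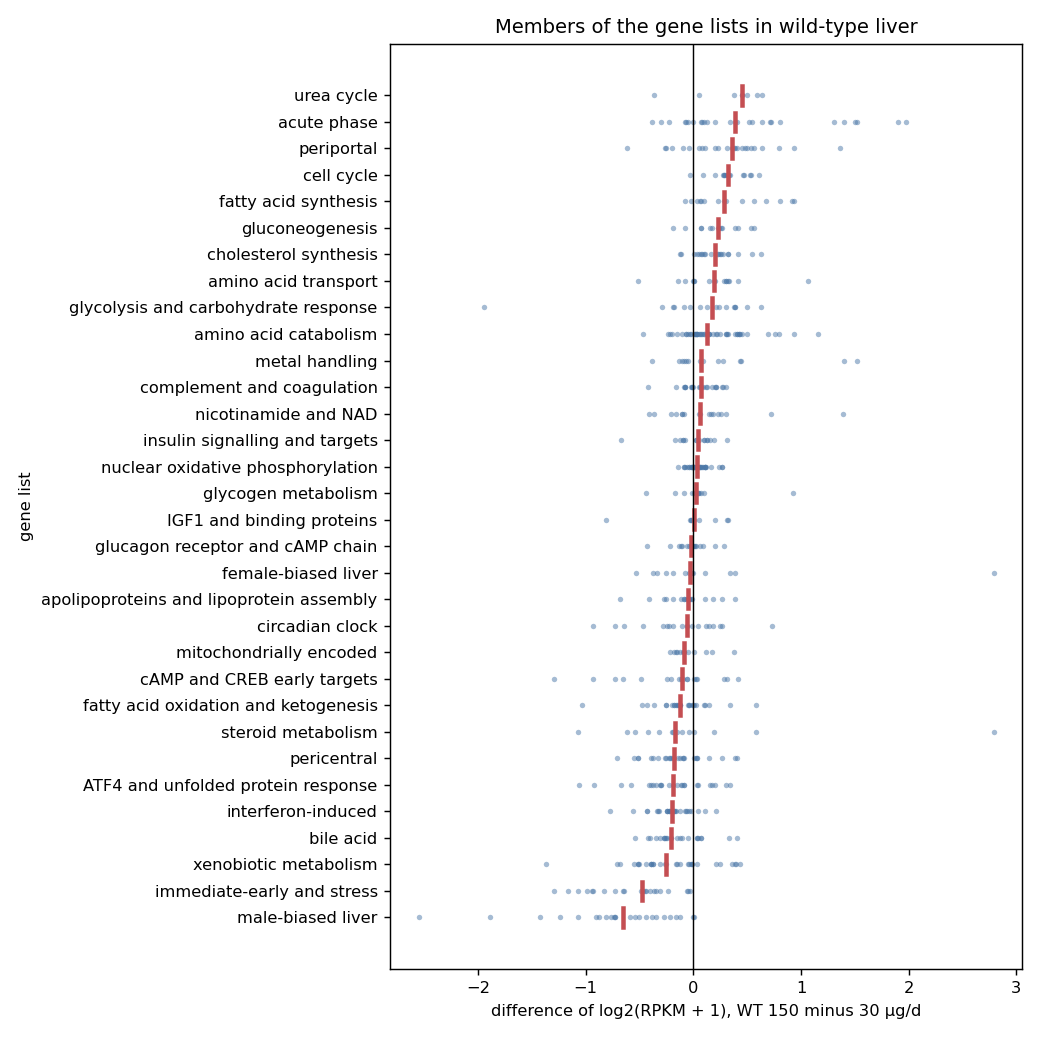
Difference of log2(RPKM + 1), WT 150 minus 30 µg/d, for each tested member (points) of the 32 pathway lists, with the list's median (bar). Medians ran from -0.66 for male-biased liver genes to 0.45 for the urea cycle, and all 22 immediate-early and stress genes lay below 0.

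Among markers of other cells, none of 75 genes tested was called by limma and 3 (4.0%) had an unadjusted p under 0.05. All 14 Kupffer cell and macrophage markers had differences above 0, with a median of 0.23, or 0.09 without library 8 and 0.41 without library 9, but their sum of 285 to 421 RPKM at 150 µg/d overlapped that of 218 to 464 RPKM at 30 µg/d, and library 9 had the highest mean. Endothelial markers summed to 148 to 166 RPKM at 150 µg/d and 144 to 175 RPKM at 30 µg/d, and stellate cell markers to 126 to 149 RPKM and 109 to 148 RPKM at those doses. The pancreatic markers Cela3b, Cpa1, Ins1 and Ins2 and the fat hormone Lep were at 0 in all 8 libraries.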

How the data were processed

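Liver mRNA was sequenced from strand-specific poly(A) libraries, per the labels' protocols. CASAVA 1.8.2, FastQC and the build GRCm38 are listed per the submitters' processing notes. For the aligner, counter and annotation the name is not given in the sources used here. The authors deposited RPKM values for 24475 genes in 22 libraries, with no pooling. No column was left unused and no 2 columns were identical.

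Genes with a mean of at least 0.5 RPKM over the 22 libraries (11590) were tested with limma 3.58.1 (R 4.3.3) on log2(RPKM + 1), with 6 groups in one fit, a mean-variance trend (16 residual and 3.18 prior degrees of freedom) and Benjamini-Hochberg adjustment, called under 0.05. On simulated data 11 of 184 calls were false, and none was made with no gene changed. Depth was estimated from low values of 3984 genes with 1 transcript, of which 67.4 to 71.2% were whole reads within 0.1 in these 8 libraries, where chance gives 20%. The depths are estimates, and no count model was run.

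Members and lists were chosen with earlier results of these data known. Named were called genes, then those of smallest p with a log2 difference of at least 0.8, at least 1 RPKM and no overlap, up to 12 per direction, the 2 members of smallest p (under 0.01) of each list, 4 genes by interaction and 16 fixed genes. Others are said to be named after their values were seen. The values of 1 gene chosen by rule and of 2 with an adjusted p under 0.1 are not reported here. Lists held 792 entries, 1 unmatched. RefSeq coordinates on GRCm38 matched 24375 identifiers. Alternatives were pseudocounts, filters, scalings, array weights, fewer groups and libraries left out. Python 3.11.15 with numpy 2.4.6 and pandas 2.3.3 made the tables.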

Additional observations from a re-analysis of the deposited data

Results flagged for a closer look

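In 9 of 118 groups of 4 libraries, 1 library lay far from the other 3 by Dixon's criterion, in which the gap to its neighbour is set against the range. Chance gives about 1 in 20 groups. No cause was tested.

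Among the libraries at 150 µg/d, Mmd2 had 12.32 RPKM in library 16, where the other 3 had 15.63 to 16.2 RPKM. Mir6516 had 10.38 RPKM in library 18, against 3.829 to 4.523 RPKM in the others. Ccl9 had 29.75 RPKM in library 17, against 9.731 to 10.93 RPKM in the others, and Asl had 218.4 RPKM there, against 391.6 to 441.1 RPKM. The valine breakdown gene Hibch had 36.87 RPKM in library 16, against 33.03 to 33.49 RPKM. Pmvk, of the mevalonate pathway, had 19.17 RPKM in library 15, against 27.85 to 29.48 RPKM.

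Among the libraries at 30 µg/d, Sdc1 had 42.81 RPKM in library 8, where the other 3 had 54.99 to 57.82 RPKM. Bhlhe41 had 3.347 RPKM in library 7, against 2.192 to 2.286 RPKM, and Ccl9 had 40.35 RPKM in library 8, against 30.44 to 31.09 RPKM. The outlying library lay toward the other dose for Mmd2, for Asl and Ccl9 at 150 µg/d, for Hibch and for Pmvk, and away from it for the rest.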

How the results depend on the processing

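The count of 1 called gene in WT liver was kept with median-of-ratios scaling, with a 2 RPKM minimum of the mean and with quantile normalization, and became 0 with pseudocounts of 0.1 and 0.5, 7 with a pseudocount of 5, 5 without a filter, 2 with 1 RPKM sum for all libraries, 12 with array weights, 5 without libraries 4 and 13, 6 with the 3 WT groups only, 3 with the 2 groups only, 0 without libraries 10 and 17 and 8 without Gcg KO library 19 (both added after seeing the data) and 0 to 4 with 1 library left out. Mmd2 missed the threshold with a pseudocount of 0.1 (2.23, limma, adjusted p = 0.124) and of 0.5 (2.09, 0.0608) and without libraries 10 and 17 (1.88, 0.214), and ranged from 1.77 to 2.08 with 1 library left out. Fewer samples enter the fits that leave libraries out, and libraries 4 and 13 were also picked for values seen in the data. The interaction count was 0 under every alternative run. The Gcg KO count of 63 became 39 without a filter, 541 with array weights 201 without libraries 4 and 13 and 282 without library 19, and was 48 to 80 with 1 WT library left out.

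Of 1248 values for 57 named genes under these alternatives, 1213 kept direction and side of the threshold, 22 passed it newly, 9 lost it and 4 reversed. Mmd2 alone was called in the main fit, so all 9 losses were its own and the other genes had no call to lose. The share that was kept therefore does not measure how firm the call of Mmd2 was. The reversals were G6pc at -0.18 without library 18 and -0.02 without library 9 (0.91 without library 17), and Igfbp1 at -0.16 without library 18 and -0.43 without library 9 (1.15 without library 17). Scaling moved the median of all genes to between -0.0051 and 0.0045. No paired analysis was possible because the running numbers are unique to each library. Depth limits the genes of a few RPKM or less. The causes of the changes listed were not tested.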
